A study of Mus musculus with 3 samples.

Results

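The microRNA (miRNA) hairpins of the miR-17 to 92 and miR-106b to 25 clusters were followed in small RNA libraries of HL-1, a mouse line of beating atrial cardiomyocytes. The hairpins are Mir17, Mir18a, Mir19a, Mir20a, Mir19b-1 and Mir92a-1 of the first cluster, Mir106b, Mir93 and Mir25 of the other, and Mir92a-2, a further copy that gives the same miR-92a-3p. They were taken by name, 10 of 1182 mouse hairpins searched, and all 10 had an entry in RefSeq. The library labelled siSrf1 and the library labelled siSrf2 were compared, each from HL-1 cells harvested 48 h after Lipofectamine transfection of siRNA (9 µl of a 20 µM stock). By title both carry an siRNA against Srf, the gene of the muscle transcription factor serum response factor. Their siRNA entries read otherwise, Srf si2 for the library labelled siSrf1 and siNon for the library labelled siSrf2. Titles and entries disagree, so directions refer to library labels only. The library titled siNon, whose entry reads Srf si1, was not analysed here.

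A miRNA hairpin is cut by the nucleases Drosha and Dicer into a short duplex. An arm of the duplex, the guide, is loaded into an Argonaute protein and pairs with mRNAs mainly through its seed, bases 2 to 8, while the other arm is usually degraded. The miR-17 to 92 cluster is transcribed with its host gene Mir17hg, is known as a MYC target that favours proliferation, and is needed for normal lung and heart development in the mouse. The miR-106b to 25 cluster is a paralog carried by the gene of the replication helicase subunit Mcm7.

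In the NCBIM37 genome the 6 hairpins of miR-17 to 92 span 836 bases of the plus strand of chromosome 14, at 115442893 to 115443728, and lie in exons of lincRNA transcripts of Mir17hg. The 3 hairpins of miR-106b to 25 span 498 bases of the minus strand of chromosome 5, at 138606549 to 138607046, inside Mcm7. Mir106b lies in an intron there, and Mir93 and Mir25 overlap an exon only of a retained-intron transcript. Mir92a-2 lies on the minus strand of chromosome X, at 50095015 to 50095105, and overlaps no other annotated gene.

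The arms with more reads fall into 4 seed families. Their RefSeq mature sequences (GRCm38.p6), with the seed in capitals, show how few bases separate the members that were counted.
miR-17-5p: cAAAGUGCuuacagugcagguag
miR-20a-5p: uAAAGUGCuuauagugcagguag
miR-93-5p: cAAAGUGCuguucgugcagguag
miR-106b-5p: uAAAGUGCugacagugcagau
miR-18a-5p: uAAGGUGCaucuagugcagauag
miR-19a-3p: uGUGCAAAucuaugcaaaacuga
miR-19b-3p: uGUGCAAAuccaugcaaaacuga
miR-25-3p: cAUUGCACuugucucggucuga
miR-92a-3p: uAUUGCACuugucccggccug
With positions counted from 1 at the 5' end, miR-20a-5p differs from miR-17-5p by C1U and C12U, and miR-19b-3p from miR-19a-3p by U11C. miR-92a-3p differs from miR-25-3p by C1U, U14C and U18C over 21 bases.

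The opposite arms are shown for the hairpins on which the library comparison turns.
miR-25-5p: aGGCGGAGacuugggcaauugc
miR-17-3p: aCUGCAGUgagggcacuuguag
miR-106b-3p: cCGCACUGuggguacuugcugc

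The library labelled siSrf1 held 14911499 reads of 36 nt, of which 5290568 were assigned to miRNAs, and the library labelled siSrf2 held 14518157, of which 4606633 were. Cardiac muscle miRNAs, among them miR-1a and miR-499, made up 64.1% of miRNA reads in the library labelled siSrf1 and 53.2% in the library labelled siSrf2, and all 6 embryonic stem cell hairpins of the miR-290 group had 0 reads. miR-1a alone took 62.5% and 51.5% in the same order of libraries, and the other members of that list did not all follow it. In that order Mir499 had 73326 and 63410 arm reads, Mir133a-1 3665 and 6220, Mir133a-2 3657 and 6206, and Mir208a 260 and 371. Fibroblast and smooth muscle miRNAs stood at 1.94% and 1.98%, and the endothelial Mir126a at 0.0591% and 0.0515%. That near-equal sum held Mir145 with 858 and 3006 arm reads, Mir143 with 39295 and 43501, and Mir199a-1 and Mir199a-2 with 31088 and 22396 each. RPM stands for reads scaled to a total of 1000000 miRNA reads. With 1 library a label there is no replicate check and no p-value. All intervals are exact 95% intervals of counting error only, and without molecular identifiers several reads can stem from 1 molecule. Reads were not calibrated to molecules, so the order of arms is an order of reads.

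The 10 hairpins together gave 0.408% of miRNA reads in the library labelled siSrf1 and 0.541% in the library labelled siSrf2, and miR-25-3p and miR-92a-3p gave most of them. miR-25-3p had 14571 reads, or 2754 RPM, in the library labelled siSrf1 and 16871 reads, or 3662 RPM, in the library labelled siSrf2. miR-92a-3p followed with 5326 reads (1007 RPM) in the library labelled siSrf1 and 5298 reads (1150 RPM) in the library labelled siSrf2. Both carry the AUUGCAC seed. Among all 271 arms with at least 50 summed reads, they ranked 24 and 38 by reads in the library labelled siSrf1.

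The AAAGUGC seed, the one for which the miR-17 family is known as a brake on cell cycle inhibitors such as Cdkn1a, was carried mostly by the miR-106b to 25 cluster. miR-93-5p had 626 reads in the library labelled siSrf1 and 777 in the library labelled siSrf2, and miR-106b-5p had 291 and 318 in the same order of libraries. miR-17-5p, the name-giving member, had 105 reads in the library labelled siSrf1 and 103 in the library labelled siSrf2. miR-20a-5p had 42 reads in the library labelled siSrf1 and 24 in the library labelled siSrf2. The 4 arms together reached 201 RPM in the library labelled siSrf1 and 265 RPM in the library labelled siSrf2, against 3761 and 4812 RPM for miR-25-3p and miR-92a-3p together.

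The other miR-17 to 92 members were scarce. miR-19b-3p had 27 reads in the library labelled siSrf1 and 24 in the library labelled siSrf2, all of which fit Mir19b-1 and Mir19b-2 alike. miR-18a-5p had 13 and 12 reads, and miR-19a-3p, which differs from miR-19b-3p by 1 base, had 1 read in each library. The opposite arms miR-18a-3p (1 and 4 reads), miR-20a-3p (1 and 0), miR-92a-1-5p (6 and 34) and miR-93-3p (2 and 5) were also below 50 summed reads, in the same order of libraries. The unannotated 5' arm of Mir19a had 0 reads in the library labelled siSrf1 and 1 in the library labelled siSrf2. miR-19b-1-5p and miR-92a-2-5p had 0 reads in each, which allows up to 3 reads. Of 19 arms, 17 had a read and 10 had at least 50 summed reads.

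**Figure D1:**
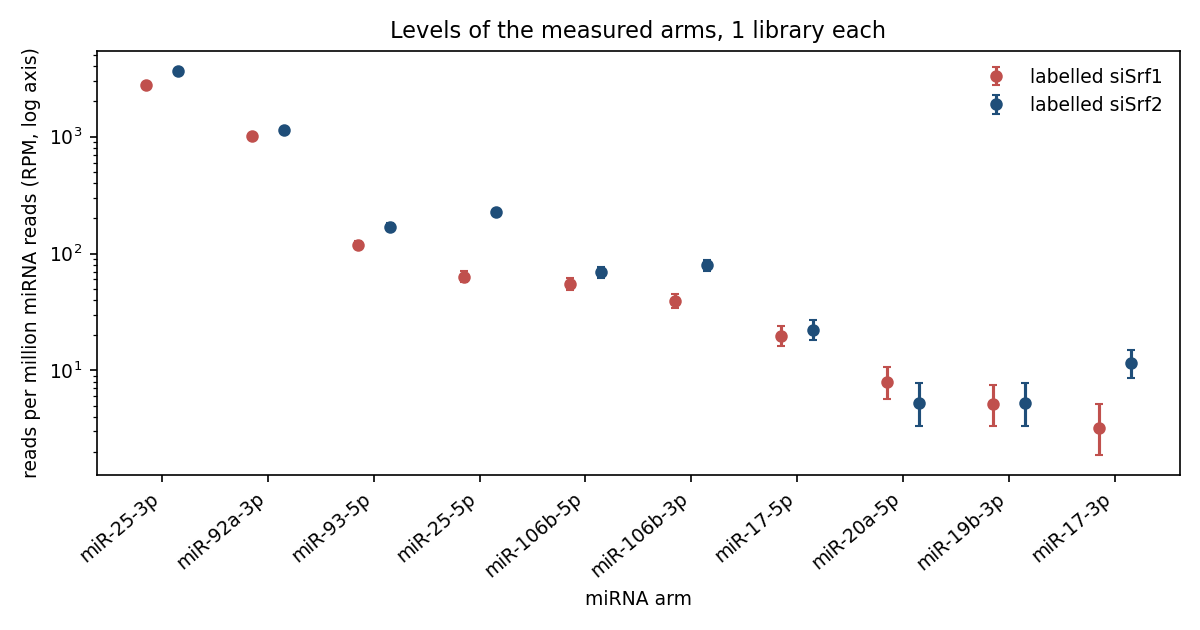
RPM (log axis) of the 10 measured arms, ordered by the library labelled siSrf1. Points are single libraries (labelled siSrf1 left, labelled siSrf2 right) and bars are exact Poisson 95% intervals. miR-25-3p and miR-92a-3p lie above all others in both libraries, and miR-25-5p and miR-17-3p show the widest gaps between libraries.

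Counting error left the order of most neighbours fixed. In the library labelled siSrf1 the intervals of miR-25-5p (334 reads, 299 to 372) and miR-106b-5p (291 reads, 259 to 326) overlapped, as did those of miR-20a-5p with miR-19b-3p and of miR-19b-3p with miR-17-3p. In the library labelled siSrf2 the overlaps were miR-106b-3p (364 reads, 328 to 403) with miR-106b-5p (318 reads, 284 to 355), and miR-19b-3p with miR-20a-5p at 24 reads each. miR-25-5p stood below miR-93-5p in the library labelled siSrf1 and above it in the library labelled siSrf2, where it had 1039 reads (977 to 1104) against 777 (723 to 834).

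Within a cluster the hairpins share a transcript, yet their reads differed widely. Mir92a-1 gave 96.3% (95.7 to 96.8) of the miR-17 to 92 reads in the library labelled siSrf1 and 96.0% (interval 95.5 to 96.6) in the library labelled siSrf2. Mir17 gave 2.32% and 2.94%, Mir20a 0.835% and 0.452%, Mir18a 0.285% and 0.301%, Mir19b-1 0.256% and 0.226%, and Mir19a 0.0380% and 0.0376%. Mir25 gave 92.9% (92.5 to 93.3) of the miR-106b to 25 reads in the library labelled siSrf1 and 92.4% (interval 92.1 to 92.8) in the library labelled siSrf2. Mir93 gave 3.92% and 4.04%, and Mir106b 3.14% and 3.53%. The dominant hairpin was the last in the transcript in both clusters, and both dominant arms carry the AUUGCAC seed.

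miR-92a-3p can come from Mir92a-1 or from Mir92a-2, whose hairpins hold the same 21 bases but go on differently after them. The hairpins are shown with the annotated arms in capitals (RefSeq, GRCm38.p6).
Mir92a-1: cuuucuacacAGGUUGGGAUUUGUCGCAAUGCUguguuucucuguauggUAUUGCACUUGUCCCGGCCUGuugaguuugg
Mir92a-2: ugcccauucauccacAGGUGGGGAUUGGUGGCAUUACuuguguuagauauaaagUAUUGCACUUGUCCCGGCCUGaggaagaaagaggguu
Of all miR-92a-3p reads, 4895 of 5326 (91.9%, 91.1 to 92.6) in the library labelled siSrf1 and 4899 of 5298 (92.5%, 91.7 to 93.2) in the library labelled siSrf2 fit only Mir92a-1. Only Mir92a-2 was fitted by 88 reads (1.65%) in the library labelled siSrf1 and 56 reads (1.06%) in the library labelled siSrf2. These hold the A that follows the arm in Mir92a-2, and an A added to a Mir92a-1 product would read the same. Likewise, a T added to a Mir92a-2 product would read as Mir92a-1. The remaining 343 reads in each library fit both copies. Among reads that fit 1 copy alone, Mir92a-1 had 98.2% (97.8 to 98.6) in the library labelled siSrf1 and 98.9% (interval 98.5 to 99.1) in the library labelled siSrf2, and the distinctive arm miR-92a-2-5p was not seen.

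Members of paralogous clusters share the seeds. miR-20b-5p, of the X-linked cluster that also holds Mir106a and Mir92a-2, had 4 reads in the library labelled siSrf1 and 2 in the library labelled siSrf2, so that the 4 member arms made up 99.6% and 99.8% of reads with the AAAGUGC seed. Mir106a and Mir18b had 0 reads. For the AUUGCAC seed, the 2 member arms made up 93.2% (92.8 to 93.5) in the library labelled siSrf1 and 95.1% (interval 94.8 to 95.4) in the library labelled siSrf2. The rest was mainly miR-92b-3p with 1290 reads in the library labelled siSrf1 and 1001 in the library labelled siSrf2. miR-363-3p had 144 and 97 reads, miR-32-5p 21 and 40, and miR-367-3p 0 and 1, in the same order of libraries.

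Between the libraries, the 7 measured guide arms had a median log2 ratio of -0.19, the 3 measured opposite arms one of -1.81, and all miRNA arms one of -0.41. The -1.81 is that of miR-17-3p, from 17 reads in the library labelled siSrf1 and 53 in the library labelled siSrf2. This arm reached 50 summed reads only through the library in which it was higher, so that median and its call lean on the minimum. With 1 internal mismatch allowed, miR-17-3p stood at -0.74, miR-106b-3p at -0.96 and miR-25-5p at -1.78. The log2 ratio is the library labelled siSrf1 minus the library labelled siSrf2, scaled to miRNA reads, with a pseudocount of 0.5 reads. An arm was past the size rule if it had at least 50 summed reads, differed at least 2-fold and had its interval on 1 side of 0. Of the 10 measured member arms, 2 were past it and higher in the library labelled siSrf2, against 24.7% of all 271 arms, and 0 were higher in the library labelled siSrf1, against 0% of all arms. Their median log2 ratio was -0.37, against -0.41 for all arms, and 9 of 10 were below 0. The scaling sets this zero: TMM factors raised every log2 ratio by 0.50 and the median of all arms to 0.08, and 5 of the 10 member arms then changed sign. Differences are therefore read against the median of all arms. With a minimum of 10 summed reads, miR-92a-1-5p, with 6 reads in the library labelled siSrf1 and 34 in the library labelled siSrf2, was also past the rule (log2 ratio -2.61, -4.25 to -1.43). Of 14 arms of the paralogs above, 3 were measured, with miR-32-5p past the rule (log2 ratio -1.11) and miR-92b-3p (0.17) and miR-363-3p (0.37) not past it.

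miR-25-3p, at 2754 RPM in the library labelled siSrf1 and 3662 RPM in the library labelled siSrf2, had a log2 ratio of -0.41 (-0.44 to -0.38) and was itself the median arm of all 271. miR-92a-3p stood at -0.19 (-0.25 to -0.14), above that median by more than its counting error. miR-93-5p stood at -0.51 (-0.67 to -0.36) and miR-106b-5p at -0.33 (-0.56 to -0.09), with intervals that hold the median. The intervals of miR-17-5p (-0.17, -0.58 to 0.23) and miR-19b-3p (-0.03, -0.88 to 0.83) hold both the median and 0. miR-20a-5p was highest at 0.59 (-0.15 to 1.40), from 42 reads in the library labelled siSrf1 and 24 in the library labelled siSrf2. It passed the 2-fold rule only with TMM factors (1.09) and median-of-ratios factors (1.01).

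By cluster, miR-17 to 92 held 996 RPM in the library labelled siSrf1 and 1154 RPM in the library labelled siSrf2, which gave a log2 ratio of -0.21 (-0.27 to -0.16) that turned to 0.28 with TMM factors. The miR-106b to 25 cluster held 3031 RPM in the library labelled siSrf1 and 4206 RPM in the library labelled siSrf2, which gave a log2 ratio of -0.47 (-0.50 to -0.44) that turned to 0.023 with TMM factors. Neither differed 2-fold. The gap between the clusters does not depend on the scaling, and the intervals of the 2 ratios did not overlap. Without Mir92a-1 the first ratio was -0.30 (-0.59 to -0.01), an interval that holds the ratio of miR-106b to 25.

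**Figure D2:**
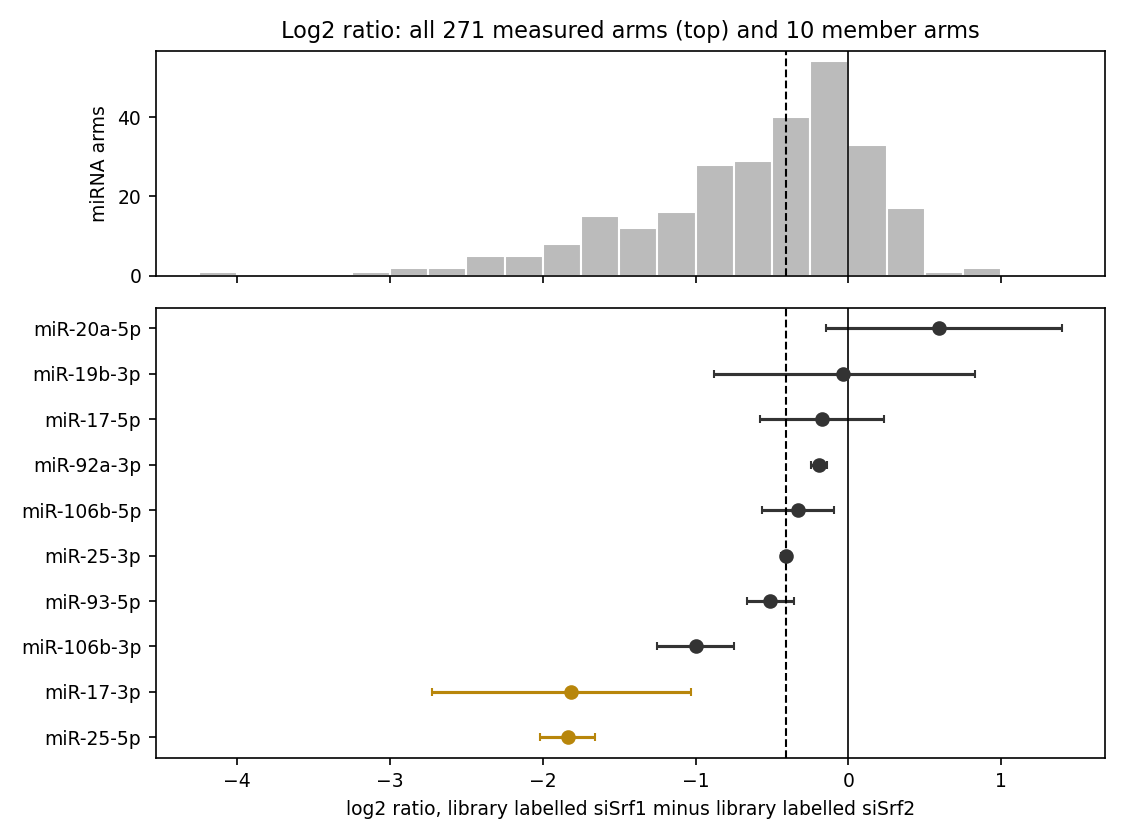
Log2 ratio of the library labelled siSrf1 to the library labelled siSrf2 for all 271 measured arms (top, histogram) and for the 10 member arms (bottom, points with exact 95% counting intervals). The solid line marks 0, the dashed line the median of all arms (-0.41), and gold points the 2 arms past the size rule. Of the guide arms only miR-93-5p lies left of the dashed line, and miR-106b-3p, miR-17-3p and miR-25-5p lie further left.

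Among member arms past the size rule, the opposite arm of Mir25 had the most reads. miR-25-5p had 334 reads (63.1 RPM) in the library labelled siSrf1 and 1039 reads (226 RPM) in the library labelled siSrf2, which gave a log2 ratio of -1.84 (-2.02 to -1.66). It stayed past the size rule at -1.34 with TMM factors. miR-25-3p from the same hairpin differed far less, so the 5' arm made up 2.24% (2.01 to 2.49) of Mir25 arm reads in the library labelled siSrf1 and 5.80% (interval 5.46 to 6.15) in the library labelled siSrf2. The hairpin is shown with both arms in capitals (RefSeq, GRCm38.p6).
Mir25: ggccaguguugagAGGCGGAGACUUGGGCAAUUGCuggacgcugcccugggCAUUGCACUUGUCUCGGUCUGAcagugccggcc

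The arms of Mir106b were nearly equally frequent. The 5' arm, which carries the miR-17 seed, made up 58.2% (53.7 to 62.6) in the library labelled siSrf1 and 46.6% (interval 42.8 to 50.5) in the library labelled siSrf2. miR-106b-3p had 209 reads (39.5 RPM) in the library labelled siSrf1 and 364 reads (79.0 RPM) in the library labelled siSrf2, which gave a log2 ratio of -0.999 (-1.25 to -0.75). It fell just short of 2-fold and it stood at -0.50 with TMM factors.

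The 5' arm of Mir17 made up 86.1% (78.6 to 91.7) of its arm reads in the library labelled siSrf1 and 66.0% (interval 58.0 to 73.4) in the library labelled siSrf2. miR-17-3p had 17 reads in the library labelled siSrf1 and 53 in the library labelled siSrf2, which gave a log2 ratio of -1.81 (-2.72 to -1.03). This call did not hold when 1 internal mismatch was allowed, with a log2 ratio of -0.74. Reads that differed from the mouse miR-17-3p at 1 base, G11A, were frequent beside the counted ones. Over the first 18 bases from the annotated start, this change was seen 73 times in the library labelled siSrf1 and 58 times in the library labelled siSrf2, or 81.1% (71.5 to 88.6) and 52.3% (42.6 to 61.8) of these reads plus the counted ones. Another rare opposite arm, miR-20a-3p, had 7 reads with C10U in the library labelled siSrf1 and 5 in the library labelled siSrf2, against 1 and 0 unchanged reads. Among the other 9 measured member arms the most frequent substitution reached at most 4.55% in either library. The 22 bases of miR-17-3p with G11A match no place in the NCBIM37 genome, while the unchanged arm matches 1. The origin of these reads, and whether any reads of the other miR-17 to 92 arms share it, was not tested. That includes miR-17-5p, miR-20a-5p, miR-19b-3p and miR-92a-3p, so the sum and the shares of this cluster may hold such reads. The arm shares of Mir17 leave out the G11A reads of the 3' arm, while any 5' arm reads of the same origin would be counted.

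Of 73 hairpins with both arms measured, 15.1% differed between the libraries in the 5' share by at least 10 percentage points with intervals apart, and of the 3 member hairpins among them Mir17 and Mir106b did. With 1 internal mismatch allowed, the shares of Mir17 were 61.6% (54.3 to 68.5) in the library labelled siSrf1 and 51.8% (interval 45.0 to 58.6) in the library labelled siSrf2, and it no longer did. The log2 ratio of the less frequent arm (by summed reads) minus that of the other arm needs no scaling. It was -1.64 for Mir17, -1.42 for Mir25 and -0.67 for Mir106b. The median of these 3 was -1.42, against -0.03 over the 70 other hairpins, of which 38 were below 0. With 1 internal mismatch allowed, the value of Mir17 was -0.57 and the median of the 3 was -0.65. Summed over members, the opposite arms had 570 reads in the library labelled siSrf1 and 1500 in the library labelled siSrf2 (log2 ratio -1.59), and 236 and 461 without miR-25-5p (-1.16). Of these 236 and 461 reads, miR-106b-3p gave 209 and 364. In the library labelled siSrf2 it was the more frequent arm of Mir106b, against 318 reads of miR-106b-5p. The guide arms had 21002 reads in the library labelled siSrf1 and 23428 in the library labelled siSrf2 (-0.36), most of them miR-25-3p. GC content moved weakly with the log2 ratio across arms (Spearman rho -0.21 over 210 arms of the same libraries). The mature arms miR-106b-3p, miR-25-5p and miR-17-3p hold 63.6%, 59.1% and 54.5% GC, against a median of 47.8% over measured arms. The guide arm miR-92a-3p holds 57.1% GC, more than miR-17-3p, and had a log2 ratio of -0.19. The paralog arm miR-92b-3p holds 63.6% GC and had a log2 ratio of 0.17. Both ratios lie above the median of all arms (-0.41). The part of GC content in the differences of the opposite arms was not tested.

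**Figure D3:**
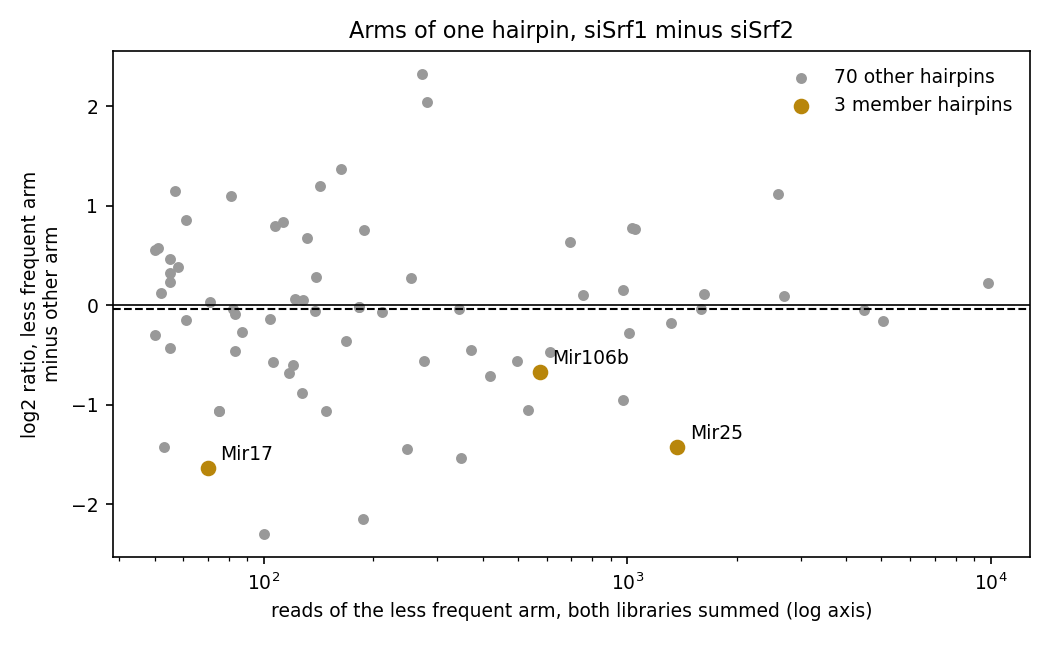
Log2 ratio (library labelled siSrf1 minus library labelled siSrf2) of the less frequent arm minus that of the other arm, for 73 hairpins, against the summed reads of the less frequent arm (log axis). Gold points are the 3 member hairpins, grey points the 70 others, and the dashed line the median of the others (-0.03). Mir17, Mir106b and Mir25 lie at -1.64, -0.67 and -1.42, within the range of the others.

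The 5' ends, which set the seed, were uniform. At least 93.1% of the reads of each measured arm began at the RefSeq start, except miR-17-3p in the library labelled siSrf1, with 14 of 17 reads (82.4%). miR-106b-3p had a minor start 2 bases upstream, with 9 of 209 reads (4.31%) in the library labelled siSrf1 and 19 of 364 reads (5.22%) in the library labelled siSrf2. Inserts of 22 nt made up 81.3% of member reads in the library labelled siSrf1 and 78.8% in the library labelled siSrf2, and 6 reads and 1 read lay outside both arms.

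The 3' ends differed from arm to arm. For miR-92a-3p, miR-106b-5p and miR-25-5p the most frequent read was 1 base longer than the RefSeq entry. These reads are shown as sequenced, with T for U, and bases that the hairpin does not encode in capitals.
miR-92a-3p most frequent read: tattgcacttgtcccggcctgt
miR-92a-3p next most frequent read: tattgcacttgtcccggcctgtA
miR-106b-5p most frequent read: taaagtgctgacagtgcagata
miR-25-5p most frequent read: aggcggagacttgggcaattgct
miR-25-3p most frequent read: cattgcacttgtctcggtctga
miR-25-3p with an added T: cattgcacttgtctcggtctgT
The longer miR-92a-3p had 3900 reads (73.2%) in the library labelled siSrf1 and 3904 (73.7%) in the library labelled siSrf2, while the 21-base RefSeq form had 156 and 157 reads. The longer miR-106b-5p had 149 reads (51.2%) in the library labelled siSrf1 and 172 (54.1%) in the library labelled siSrf2. The longer miR-25-5p had 220 reads (65.9%) in the library labelled siSrf1 and 748 (72.0%) in the library labelled siSrf2. miR-25-3p ended as in RefSeq, with 11765 exact reads (80.7%) in the library labelled siSrf1 and 13713 (81.3%) in the library labelled siSrf2.

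Bases not encoded by the hairpin, which enzymes such as the TUT terminal transferases are known to add, were found at the 3' end of 13.6% (13.2 to 14.1) of member reads in the library labelled siSrf1 and 12.6% (interval 12.2 to 13.0) in the library labelled siSrf2. No tailed insert matched the genome. Across all 191 arms with at least 50 reads in each library the median share was 15.8% (quartiles 9.75% and 28.8%) in the library labelled siSrf1 and 16.0% (9.41% and 27.2%) in the library labelled siSrf2. miR-25-5p lay below these quartiles with 3.59% in the library labelled siSrf1 and 4.14% in the library labelled siSrf2, and miR-106b-3p lay within them with 18.2% and 22.3%. The most frequent counted tail differed between the arms that share the AUUGCAC seed. For miR-92a-3p a lone A was most frequent, in 10.9% of reads in the library labelled siSrf1 and 10.2% in the library labelled siSrf2, against 0.282% and 0.434% for a lone T. In Mir92a-1 the base after the most frequent read is also T, so a T added there was not counted as a tail. The read with T at that place had 123 reads in the library labelled siSrf1 and 129 in the library labelled siSrf2. The counted tails of this arm therefore do not compare added A with added T. For miR-25-3p a lone T was most frequent, in 5.52% and 4.69%, against 1.35% and 1.74% for a lone A, in the same order of libraries. A further 3.03% and 2.84% of miR-25-3p reads ended in TA, whose last base equals the template, so a base substitution would look the same. That also holds for most lone T reads: 627 of 804 and 597 of 791 had T in place of the last A. An A at that place is encoded and was not counted as a tail. After the full 22 bases, an added A had 178 and 264 reads and an added T 139 and 165, in the same order of libraries.

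**Figure D4:**
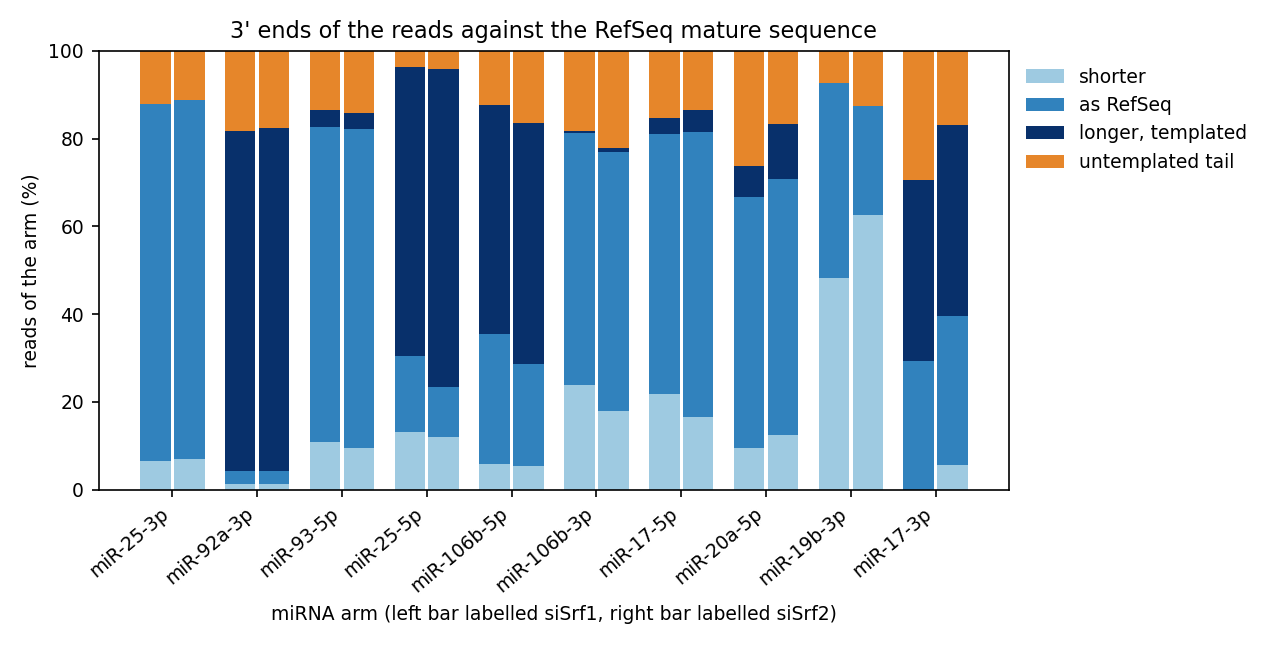
Share of the reads of each measured arm (percent, stacked to 100) that ended before, at or beyond the RefSeq 3' end, or carried an untemplated tail, with the library labelled siSrf1 as left bar and the library labelled siSrf2 as right bar. miR-92a-3p, miR-25-5p and miR-106b-5p ended mostly beyond the RefSeq end, and the pattern of each abundant arm was much alike in both libraries.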

How the data were processed

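The authors deposited a count of reads for every distinct 36 nt sequence of each library, without normalization, per the file headers. Per the labels' protocols, an Illumina kit for small RNA was used and sequencing was done on the Genome Analyzer. No aligner, build or filter of the authors is given in the sources used here. Labels do not say whether libraries came from separate cultures.

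Reads were cut at the first 8 nt of the 3' adapter, or at 4 nt or more of it at the read end. Inserts of 18 to 25 nt were matched to 1005 RefSeq hairpins (GRCm38.p6) and 177 further GENCODE vM1 hairpins (NCBIM37), exactly or with up to 2 untemplated 3' bases after at least 16 templated ones. Inserts that fit several arms were shared equally. Log2 ratios were scaled to miRNA reads; binomial, Clopper-Pearson and Poisson 95% intervals were exact (Python 3.11.15, scipy 1.17.1, pandas 2.3.3). Alternatives used TMM (edgeR 4.0.16) and median-of-ratios factors (DESeq2 1.42.0, R 4.3.3), other totals, lengths, adapter lengths, mismatches, minimums of 10 and 500 reads and a pseudocount of 5. The matching was tested on reads built from the same hairpins, and the size rule on simulated counts with counting error only. Spread between libraries was not simulated.

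All member arms are named, those with at least 50 summed reads with full values, and outside the members only a related list of 8 hairpins and cell type markers. Members and lists were chosen with earlier results of these data known. The search of substitutions and the arm differences with 1 mismatch were added after the values of miR-17-3p were seen. No adapter was found in 32.6% of reads in the library labelled siSrf1 and 31.8% in the library labelled siSrf2, and these were not counted.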

Additional observations from a re-analysis of the deposited data

Results flagged for a closer look

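Reads outside the main count held member miRNAs. Among reads in which no adapter was found, 5472 in the library labelled siSrf1 and 5852 in the library labelled siSrf2 began with the first 20 bases of a measured member arm. For miR-25-3p these reads came to 21.3% and 20.1% of the counted reads plus these, for miR-92a-3p to 19.1% and 18.2%, and for miR-25-5p to 16.9% (68 reads) and 9.96% (115 reads), with the library labelled siSrf1 given before the library labelled siSrf2. No library with a control title was analysed, although the siRNA entry of the library labelled siSrf2 reads siNon. Which library is a control was not tested, so these counts stand only above the limit of 3 reads that a count of 0 allows. With 1 mismatch allowed in the adapter, the log2 ratio of miR-106b to 25 was -0.44.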

How the results depend on the processing

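No paired analysis was possible because each label has 1 library. Other scalings raised both cluster sums. The miR-17 to 92 log2 ratio (-0.21) became 0.28 under TMM, 0.20 under median-of-ratios scaling, 0.16 with the total without miR-1a and -0.11 with the total of all inserts, and it was -0.30 without Mir92a-1. The miR-106b to 25 log2 ratio (-0.47) became 0.023, -0.061, -0.10 and -0.37 under the same 4 scalings in that order, -0.51 with exact matches only and -0.44 with 1 mismatch in the adapter. Of all arms, 67 were past the size rule and higher in the library labelled siSrf2, against 39 under TMM, 43 under median-of-ratios scaling, 108 with a minimum of 10 reads and 19 with a minimum of 500 reads. Higher in the library labelled siSrf1 were 0 arms, against 3 under TMM, 3 under median-of-ratios scaling, 2 without miR-1a, and 1 each with the total of all inserts, exact matches only, inserts of 20 to 24 nt, sequences read once left out and a minimum of 10 reads. Among member arms, 2 were higher in the library labelled siSrf2, and 1 (miR-25-5p) with 1 internal mismatch or a minimum of 500 reads, and 3 (with miR-92a-1-5p) with a minimum of 10 reads. Under TMM and median-of-ratios factors, 1 member arm (miR-20a-5p) was higher in the library labelled siSrf1, against 0. miR-106b-3p passed the size rule with inserts of 20 to 24 nt (-1.02), with inserts that fit several arms left out and with 1 mismatch in the adapter. Of the values for single arms, seed families and arm shares, 170 stayed within their counting interval or kept their call, 34 moved out of it, 5 gained a call and 1 lost it, and none that was called changed sign. The cause of these changes was not tested, other than the scaling, which shifts every ratio alike. Mismatches in the adapter and leaving out Mir92a-1 were tried after the data were seen. The few reads of miR-18a-5p and miR-19a-3p leave intervals on both sides of 0 at this depth.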
